A study of Mus musculus with 6 samples.

Results

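Hypoxia and HIF target genes outside glycolysis were followed in mouse CD4+ T cells cultured with or without idelalisib. The set holds 40 genes, picked by symbol from a count table of 54532 genes: the subunits and oxygen-dependent regulators of hypoxia-inducible factor (HIF), and genes that HIF is known to switch on other than those of glycolysis. Every symbol had 1 entry in the table. After removal of genes with too few reads 39 of the 40 were tested, and the remaining one, Loxl2, had 0 or 1 read per control library and 1 to 9 per idelalisib library.

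HIF is a transcription factor made of an oxygen-labile alpha subunit and a stable beta subunit. When oxygen is plentiful, prolyl hydroxylases mark the alpha subunit, the VHL protein recognises the mark, and the subunit is degraded. When oxygen is scarce, or when growth factor and antigen receptor signals raise its synthesis through PI3K and mTOR, the alpha subunit builds up and binds a short core motif near genes for glycolysis, blood supply, matrix and mitochondrial adaptation. Activated T cells are known to use HIF in this way at normal oxygen as well.

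The control group was splenic CD4+ T cells of C57BL/6 mice kept 72 h in a T helper 1 polarising culture, and the treated group was the same culture with idelalisib, an inhibitor of the PI3K delta catalytic subunit, with 3 biological replicates each. The labels name no genotype other than the strain, and the sources used here do not give the drug dose, the solvent, the age of the mice or the oxygen level. It is also not stated whether the replicates are separate animals, so the p-values rest on the spread among these 6 libraries alone, part of which may be technical. Library totals ran from 13372318 to 16770452 reads. Values are CPM, read counts scaled to a fixed library total, after trimmed mean of M-values (TMM) scaling, which corrects for differences in RNA composition, and fold changes are idelalisib over control.

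The CD4 T cell markers Cd3e, Cd3d, Cd3g, Cd4 and Trac were present in every library, and the 8 markers of that list summed to 3168 to 3206 CPM in controls and 2936 to 3183 CPM with the drug. Of those 8, Cd3e and Cd3g were called higher with idelalisib, at log2 fold changes of 0.25 and 0.35, and Lck lower, at -0.40 (edgeR adjusted p = 0.0171, 0.0028 and 0.00154). Markers of other spleen cells were sparse and some differed between groups. Of 8 B cell markers 6 were called higher with idelalisib, with sums of 7.86 to 9.08 CPM in controls and 15.1 to 18.2 CPM with the drug. Of 9 monocyte and macrophage markers Cd68 alone was tested and called lower, with sums of 17.4 to 18.3 and 10.1 to 13.7 CPM, and C1qa was at 0 in all libraries. The granulocyte list summed to 36.8 to 42.2 and 104.5 to 126.1 CPM, nearly all of it Ly6g. Sums with idelalisib lay above those of the controls for NK cell markers (4.44 to 6.34 and 8.69 to 12.7 CPM) and platelet markers (5.32 to 6.28 and 8.76 to 17.1 CPM). In the NK cell list Eomes alone was called higher, from a mean of 2.88 to 9.30 CPM, while Klre1 was at 2.32 and 1.94 CPM without passing, Klrb1c was under 1 CPM and lower in every treated library, and Ncr1 was at 0. The sums overlapped for endothelial and stromal, CD8 T cell and erythroid markers, but 2 genes of these lists were called higher: Kdr, from a mean of 0.201 to 3.24 CPM, and Cd8a, from 1.82 to 3.40 CPM (edgeR adjusted p = 3.48e-05 and 0.036). The endothelial sum was mostly Pecam1, and Cdh5 was at 0. The dendritic cell markers summed to 11.63 to 12.87 CPM in controls and 8.42 to 11.61 CPM with idelalisib, narrowly without overlap. Neither of the 2 tested was called. The part of other cells in the values below was not tested, and in bulk RNA fewer expressing cells and less RNA per cell cannot be told apart.

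Most of the hypoxia genes were lower with idelalisib. Of the 39 tested, 27 fell, 2 rose and 10 did not pass when p-values of edgeR's quasi-likelihood test, adjusted over all genes, were held to 0.05. The background is high in both directions: of 14530 genes tested 22.4% were called lower and 22.2% higher, 44.6% in all, against 69.2% and 5.13% of the hypoxia genes. Among genes averaging at least 10 CPM the background was 26.7% lower and 23.3% higher, and of the 36 hypoxia genes at that level 25 were lower and 2 higher. Falls of at least 1 on the log2 scale were called for Epas1, Vegfa, Adm, P4ha2, Ero1l, Jmjd6 and Ndrg1, which is 7 of 39 against a background of 5.96%. In 29 of the 39 genes every idelalisib library lay below every control library, against 27.2% of all genes tested, and in 3 every one lay above, against 27.5%.

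The median log2 fold change of the 39 genes was -0.48, beside 0.01 over all genes. Scaling by library size alone moved the median of all genes to 0.16 and raised the share of calls on the higher side from 49.7% to 68.5%. The median of the hypoxia genes was then -0.32, with 21 lower and 3 higher. Among the 4 scalings tried (TMM, relative log expression, upper quartile and library size alone), Pgm1 and Pgm2 were the only genes of the set whose fold changes turned sign.

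**Figure D1:**
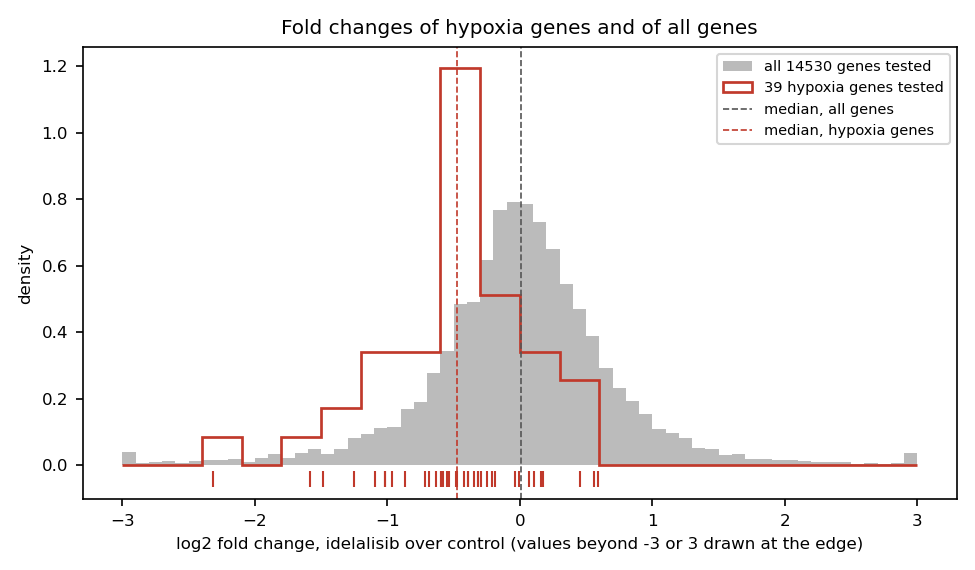
Density of log2 fold changes, idelalisib over control, for all 14530 genes tested (grey) and for the 39 hypoxia genes tested (red outline and ticks), with dashed medians at 0.01 and -0.48. The red distribution lies to the left of the grey one and reaches from -2.32 to 0.59.

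**Figure D2:**
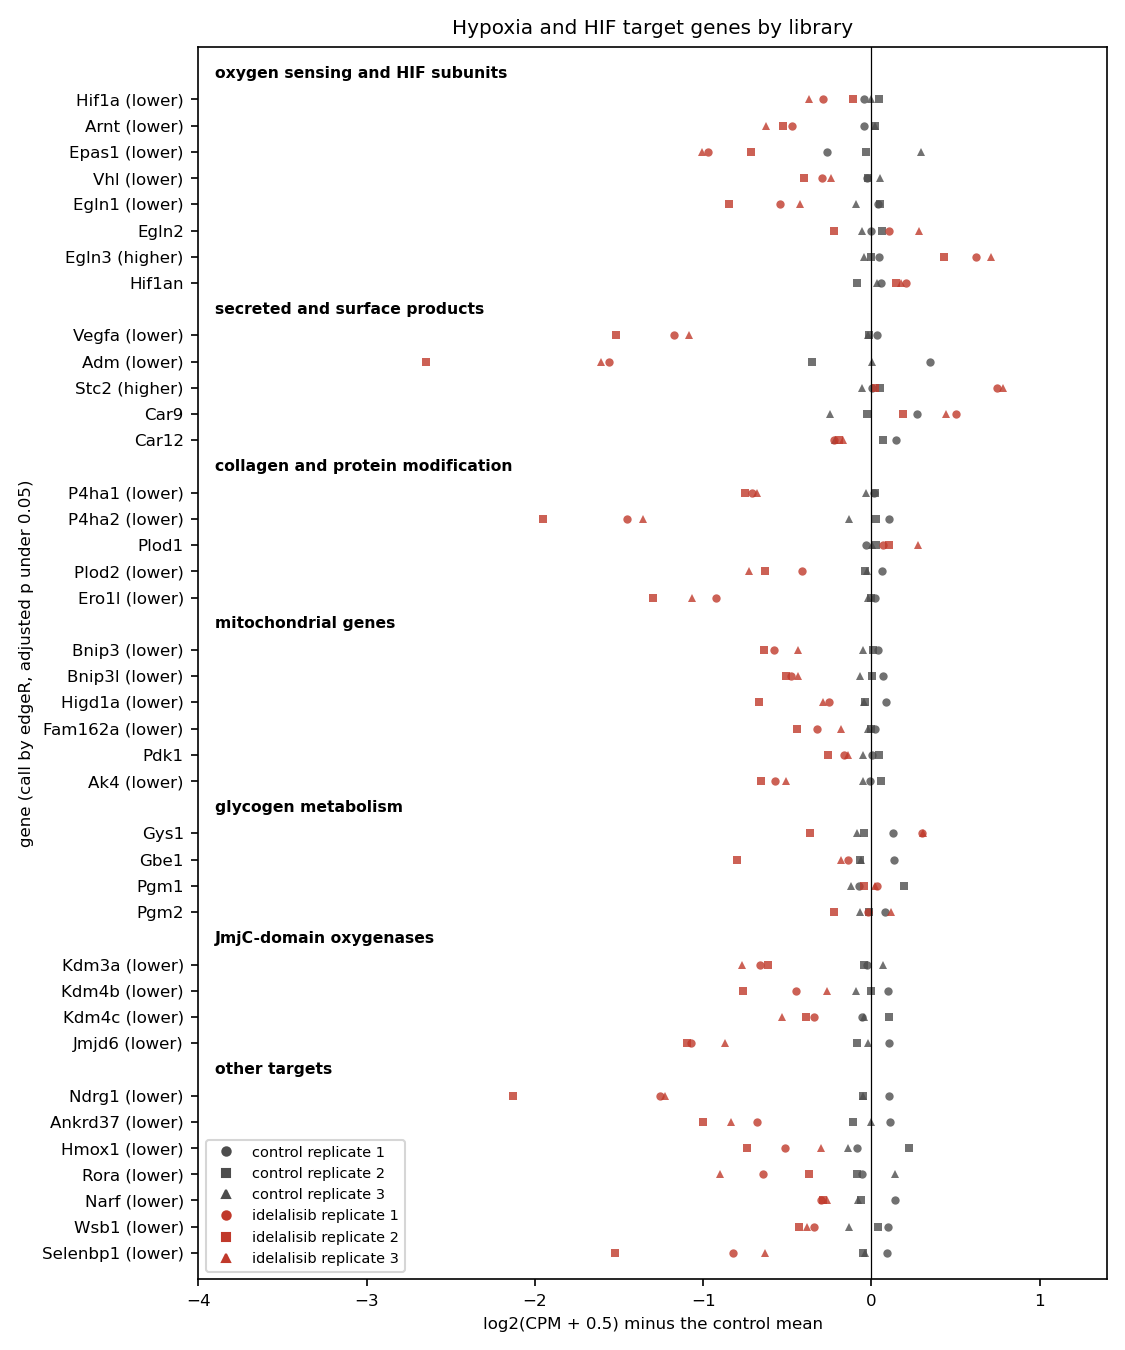
Each point is 1 library, drawn as log2(CPM + 0.5) minus the mean of the 3 control libraries, with genes grouped by role and replicates told apart by shape. Adm, P4ha2 and Ndrg1 lie farthest to the left, and Egln3 lies to the right in all 3 idelalisib libraries. Of the glycogen genes, Gbe1 lies below 0 in all 3 idelalisib libraries, while Gys1, Pgm1 and Pgm2 lie on both sides of 0.

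The HIF core motif was looked for in the promoters, because most of the genes moved in one direction. Promoter windows from RefSeq (GRCm38.p6, the build also called mm10), 250 bases before to 50 after each start site, were matched for 33 of the 40 genes by symbol or synonym and position. Epas1, Plod2, Loxl2, Bnip3l, Kdm4b, Ndrg1 and Hmox1 had no entry. The motif was searched as ACGTG or GCGTG on both strands, so that the palindrome CACGTG, which is also the E-box bound by MYC and other factors, counts as a match on each strand. The 250 bases upstream of the start site are shown for the alpha subunit gene Hif1a, for 3 effector genes that fell and for Egln3, which rose, from windows that overlap no annotated exon there, 5′ to 3′, with the motif in either orientation in capitals.
Hif1a, chr12:73907617-73907866, plus strand: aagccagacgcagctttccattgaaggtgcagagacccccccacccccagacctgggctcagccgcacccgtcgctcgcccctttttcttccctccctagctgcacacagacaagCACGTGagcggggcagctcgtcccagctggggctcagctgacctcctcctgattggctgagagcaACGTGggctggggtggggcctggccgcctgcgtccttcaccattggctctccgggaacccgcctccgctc
Adm, chr7:110627407-110627656, plus strand: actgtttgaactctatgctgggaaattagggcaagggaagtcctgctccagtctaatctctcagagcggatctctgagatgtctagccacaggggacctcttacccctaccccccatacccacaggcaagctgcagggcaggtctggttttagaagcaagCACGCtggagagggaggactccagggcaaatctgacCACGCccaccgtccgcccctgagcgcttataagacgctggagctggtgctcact
P4ha1, chr10:59323046-59323295, plus strand: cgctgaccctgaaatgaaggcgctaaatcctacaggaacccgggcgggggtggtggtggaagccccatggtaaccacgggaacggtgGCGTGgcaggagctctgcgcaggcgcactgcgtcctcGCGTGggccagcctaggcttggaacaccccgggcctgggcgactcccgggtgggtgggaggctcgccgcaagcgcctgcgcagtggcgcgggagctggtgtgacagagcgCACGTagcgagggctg
P4ha2, chr11:54100674-54100923, plus strand: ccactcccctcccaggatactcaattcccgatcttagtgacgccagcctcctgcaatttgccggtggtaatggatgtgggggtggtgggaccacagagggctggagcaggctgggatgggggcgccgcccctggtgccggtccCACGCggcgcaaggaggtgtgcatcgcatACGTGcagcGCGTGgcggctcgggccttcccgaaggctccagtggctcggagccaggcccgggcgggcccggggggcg
Egln3, chr12:54203875-54204124, minus strand: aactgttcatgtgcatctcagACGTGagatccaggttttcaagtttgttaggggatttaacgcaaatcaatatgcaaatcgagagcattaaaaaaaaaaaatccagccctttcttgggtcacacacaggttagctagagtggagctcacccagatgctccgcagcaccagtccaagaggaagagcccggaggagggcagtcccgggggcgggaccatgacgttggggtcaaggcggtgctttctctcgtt
P4ha2 and P4ha1, paralogs that both fell, each held 3 matches upstream of the start, and the Hif1a stretch, whose RefSeq start lies inside the longer deposited gene model, held a CACGTG. Egln3 held a single match, near the far end of the window. Other genes that fell also had windows free of exons and are not shown. Among them were Wsb1, with 6 matches in its first window, and Vegfa, with 0 in its first window.

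At least 1 match was present in 28 of the 33 genes (84.8%), against 67.4% of 9936 tested genes with a promoter entry and 46.7% of all 27025 genes with one. Counted by window rather than by gene it was 32 of 43 (74.4%), against 43.8% of all 32851 windows. Windows of 1 gene can overlap, as some of Ak4 do, so the same match can count more than once. Among the genes called lower 20 of 21 held a match in at least 1 window, the exception being Vhl. Among those called higher 2 of 2 did, and among those not called 6 of 10 did. The first window of Vegfa and that of Kdm4c, both called lower, held 0 matches. Their 2 and 6 matches all lay in window 2. ACGTG alone was present in 21 of 33 genes (63.6%), against 29.7% of the tested genes, and CACGTG in 6, namely Hif1a, Bnip3, Ak4, Kdm4c, Wsb1 and Egln2. These shares describe letters in a window, for genes that were listed as HIF targets to begin with, and no test was made on them.

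**Figure D3:**
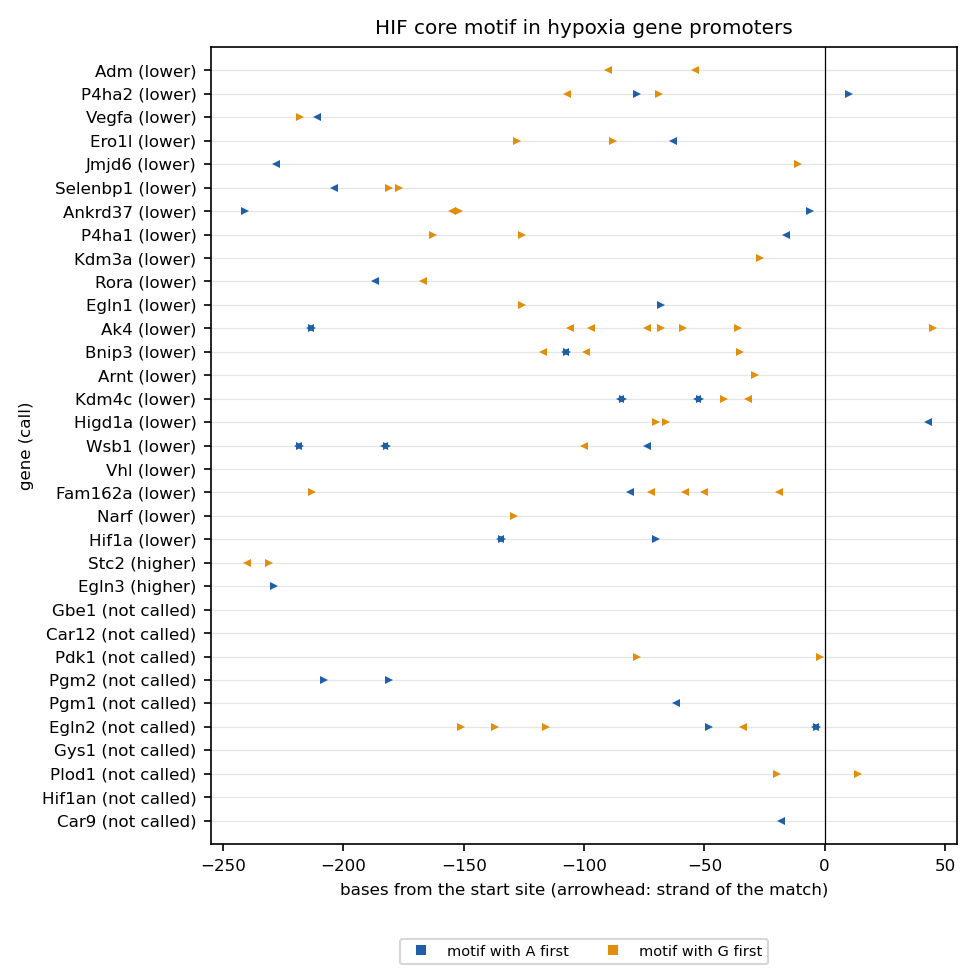
Position of each motif match relative to the RefSeq start site for the 33 genes with a promoter, ordered by call and fold change, with arrowheads for the strand and all windows of a gene overlaid. Matches are spread over the window, and 5 genes (Vhl, Gbe1, Car12, Gys1 and Hif1an) have none.

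The HIF subunits of the set were lower, by small steps for the most abundant one. Hif1a, the oxygen-labile alpha subunit (ENSMUSG00000021109, mm10 chromosome 12, 73901375 to 73947530), was at 1291, 1374 and 1332 CPM in controls and 1093, 1237 and 1030 CPM in treated libraries. The groups did not overlap, with a log2 difference of -0.25 ± 0.08 (SE; edgeR, adjusted p = 0.0245), but it was not called when any control library or idelalisib replicate 1 was left out (adjusted p 0.0571 to 0.109), with upper-quartile scaling (0.0516) and by library size alone (0.36). Gm15283 on the opposite strand overlaps 5.60% of its exonic bases. Arnt, the stable beta partner, fell 1.46-fold, from 166.4, 174.3 and 174.3 to 123.8, 119.0 and 110.8 CPM (log2 difference -0.54 ± 0.08 SE by edgeR, adjusted p = 9.16e-05), and kept its call in all 16 alternatives. Epas1, which encodes the second alpha subunit HIF-2 alpha, was scarce, at 4.94, 5.88 and 7.51 CPM in controls and 2.83, 3.47 and 2.75 CPM in treated libraries, which did not overlap, a log2 difference of -1.02 ± 0.23 (SE; edgeR, adjusted p = 0.0024). Per kilobase of gene model Hif1a stood at 226.0 and Epas1 at 1.15 CPM in control cells, and at 190.0 and 0.568 CPM with idelalisib.

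The enzymes that mark HIF moved apart. Egln3, a prolyl hydroxylase gene that HIF itself induces in many cells (ENSMUSG00000035105, mm10 chromosome 12, 54178981 to 54203860), was at 680.1, 658.4 and 638.9 CPM in controls and rose to 1012, 888.3 and 1078 CPM with idelalisib. Every treated library exceeded every control, a 1.51-fold rise (log2 difference 0.59 ± 0.08 SE by edgeR, adjusted p = 8.32e-05) that was called in all 16 alternatives. Egln1, the hydroxylase known as the main oxygen sensor for HIF and likewise a HIF target, went the other way, from 333.2, 335.2 and 304.4 to 222.0, 179.8 and 241.5 CPM (log2 difference -0.60 ± 0.10 SE by edgeR, adjusted p = 0.000317). Egln2, the third of these hydroxylases, did not pass the test, at 47.9 ± 1.99 CPM in controls and 50.3 ± 8.78 CPM in treated libraries (SD, n = 3), which overlapped (edgeR adjusted p = 0.65). Hif1an, the asparagine hydroxylase that blocks HIF's coactivator binding, was at 59.3 to 65.5 and 69.8 to 72.8 CPM without passing (log2 fold change 0.18, edgeR adjusted p = 0.0935), although the groups did not overlap and it was called by library size alone (0.00463) and with upper-quartile scaling (0.0464). Vhl, which recognises the hydroxylated alpha subunit, fell from 48.1, 48.3 and 50.7 to 39.9, 37.0 and 41.3 CPM (log2 difference -0.31 ± 0.09 SE by edgeR, adjusted p = 0.0106), a call lost by library size alone (0.149) and without control replicate 3 (0.0515).

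**Figure D4:**
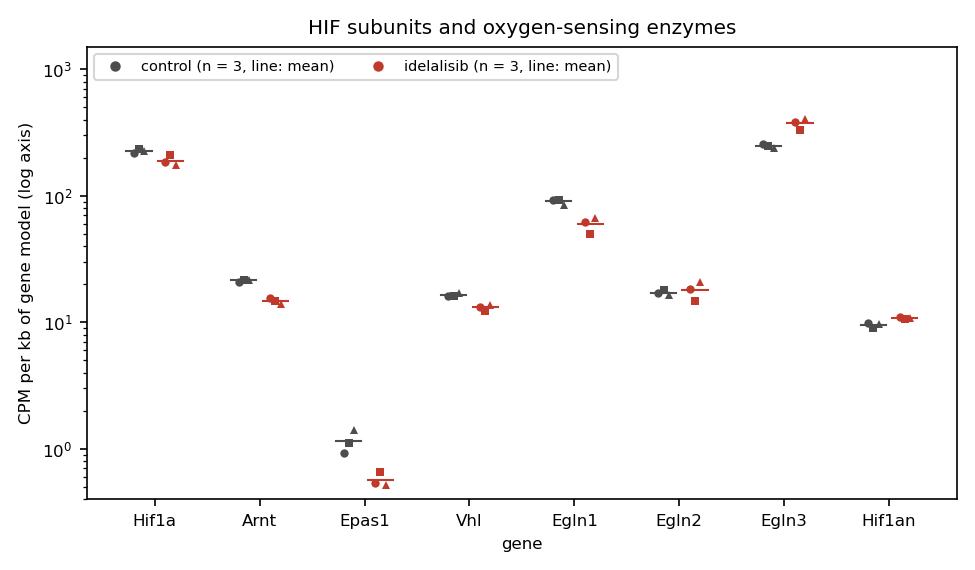
Levels of the HIF subunits and oxygen-sensing enzymes as CPM per kilobase of gene model on a log axis, with 1 point per library and lines at the means of 3. Egln3 is the highest in both groups and is higher with idelalisib, while Hif1a, Arnt, Epas1, Vhl and Egln1 are lower.

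Ratios within a library do not depend on scaling between libraries. Per kilobase, Egln3 mRNA was 2.76, 2.65 and 2.83 times that of Egln1 in the control libraries and 6.16, 6.67 and 6.03 times in the idelalisib libraries. The groups were far apart, with the treated ratios all above the control ones. The Epas1 to Hif1a ratio was 0.00509 ± 0.00104 in control and 0.00298 ± 0.000121 with idelalisib (SD, n = 3). P4ha2 to P4ha1, the paralogous collagen hydroxylase genes, was 0.225 ± 0.0151 and 0.123 ± 0.0233, again without overlap. Bnip3 to Bnip3l was 0.728 ± 0.0122 and 0.689 ± 0.033, with overlapping groups. A two-sided exact permutation test on the log2 ratios gave p = 0.1 for the first 3 of these 4 ratios, the smallest that 3 against 3 libraries allow (0.133 adjusted over the 4), and p = 0.2 for the last, so none could pass at 0.05.

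**Figure D5:**
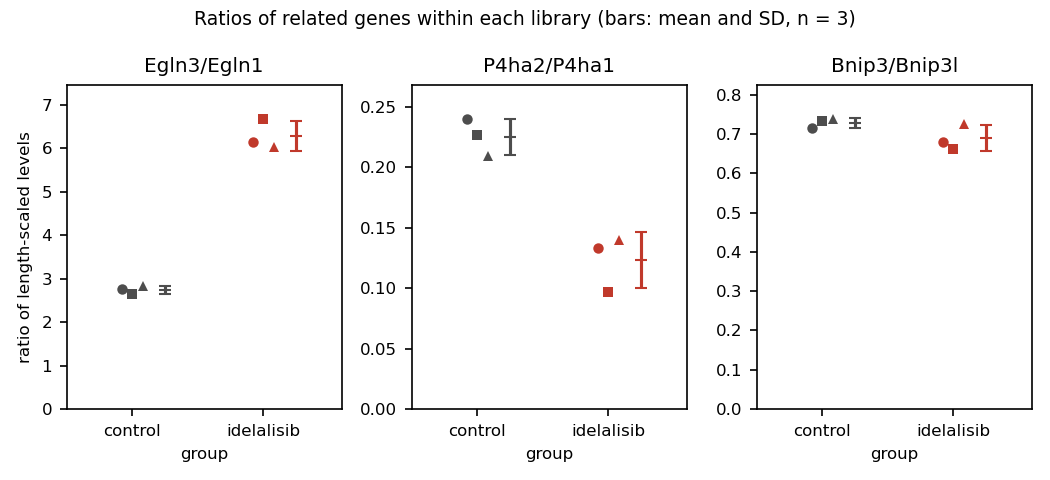
Ratios of length-scaled levels of related genes in each library, with points for libraries and bars for mean and SD (n = 3 per group). The Egln3 to Egln1 ratio is above 6 in all idelalisib libraries and below 3 in all control libraries, the P4ha2 to P4ha1 ratio is lower with idelalisib, and the Bnip3 to Bnip3l ratios overlap.

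Secreted and cell surface products did not move as one. Vegfa, the angiogenic growth factor and a classical HIF target (ENSMUSG00000023951, mm10 chromosome 17, 46016993 to 46032369), was at 186.3, 180.3 and 179.5 CPM in controls and 80.4, 63.2 and 85.5 CPM in treated libraries. The control values lay close together and far above all treated ones, a 2.38-fold fall (log2 difference -1.25 ± 0.10 SE by edgeR, adjusted p = 6.41e-07). Adm, which encodes the vasodilator peptide adrenomedullin, showed the largest fold of the set at low counts, with 101, 56 and 68 reads in control and 20, 5 and 21 in idelalisib libraries. Its CPM went from 6.32, 3.70 and 4.86 to 1.32, 0.354 and 1.25, a 4.98-fold fall (log2 difference -2.32 ± 0.37 SE by edgeR, adjusted p = 0.000185; -1.94 without idelalisib replicate 2).

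Stc2, a secreted glycoprotein gene of stress responses, was one of the 2 genes called higher, but its groups overlapped. It was at 39.1, 40.4 and 37.4 CPM in controls and 65.6, 39.5 and 67.2 CPM in treated libraries, with replicate 2 inside the control range (log2 difference 0.56 ± 0.18 SE by edgeR, adjusted p = 0.0262). The call held without idelalisib replicate 2, where the log2 fold change was 0.77, and was lost in the other 5 fits that left out 1 library (adjusted p 0.0509 to 0.113). The membrane carbonic anhydrases Car9 and Car12, which regulate pH at the cell surface, did not pass. Car9 had few reads, 18 to 33 in controls and 27 to 40 in treated libraries, or 1.29 to 2.06 and 1.91 to 2.50 CPM (log2 difference 0.46 ± 0.30 SE, edgeR adjusted p = 0.234). Car12 was at 22.4, 21.3 and 17.4 CPM in controls and 17.2, 17.6 and 17.9 CPM in treated libraries (log2 difference -0.21 ± 0.13 SE, edgeR adjusted p = 0.19), and in both genes the groups overlapped.

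Genes for protein hydroxylation and folding gave some of the steadiest falls. P4ha1 and P4ha2 encode alternative catalytic subunits of collagen prolyl hydroxylase. P4ha1 was at 330.4, 331.7 and 319.2 CPM in controls and 199.7, 193.7 and 203.7 CPM with idelalisib, with little spread in either group (log2 difference -0.72 ± 0.07 SE by edgeR, adjusted p = 4.69e-06). P4ha2 fell further, from 120.1, 113.9 and 101.4 to 40.4, 28.4 and 43.2 CPM, or 2.99-fold (log2 difference -1.58 ± 0.13 SE by edgeR, adjusted p = 1.82e-06). Ero1l, the endoplasmic reticulum oxidase that drives disulfide formation (Ero1a in RefSeq), was among the most abundant of the set and dropped 2.13-fold, from 1298, 1272 and 1260 to 672.4, 518.1 and 608.5 CPM (edgeR adjusted p = 8.74e-07). No treated library of these 3 genes came near a control value.

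The lysyl hydroxylases, which modify collagen for crosslinking, gave 1 call. Plod2 fell from 64.6, 60.2 and 60.8 to 46.3, 39.7 and 37.1 CPM (log2 difference -0.59 ± 0.10 SE by edgeR, adjusted p = 0.000254). Plod1 was at 12.1, 12.6 and 12.4 CPM in controls and 12.97, 13.3 and 15.1 CPM with idelalisib, higher in every treated library but without passing (log2 fold change 0.16, edgeR adjusted p = 0.351). The difference between them was not tested. Loxl2, a lysyl oxidase family gene, was too low to test.

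Of the 6 mitochondrial genes 5 fell, each by less than 1 on the log2 scale, beside 22.4% of all genes called lower. Bnip3 and Bnip3l, receptors that mark mitochondria for autophagy, went from 135.4, 132.6 and 127.1 to 88.1, 84.3 and 97.1 CPM and from 323.0, 308.8 and 293.6 to 221.1, 216.9 and 227.8 CPM. Both had separate groups and log2 differences of -0.55 and -0.48 (SE 0.08 each; adjusted p = 0.000127 and 0.000193 by edgeR). Of the 50-base words in their transcripts 47.2% and 20.8% also occur in other genes, with the pseudogene Bnip3l-ps sharing most with Bnip3l, so the assignment of some reads is uncertain. Ak4, an adenylate kinase of the mitochondrial matrix, fell from 95.8, 100.5 and 93.4 to 64.6, 61.1 and 67.7 CPM (log2 difference -0.58 ± 0.08 SE by edgeR, adjusted p = 7.68e-05). 

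Higd1a and Fam162a encode mitochondrial membrane proteins and moved by smaller steps. Higd1a fell from 87.2, 80.0 and 79.7 to 69.0, 51.6 and 67.2 CPM, with replicate 2 lowest (log2 difference -0.39 ± 0.11 SE, edgeR adjusted p = 0.00834). Fam162a fell from 160.0, 157.1 and 155.7 to 125.7, 115.9 and 138.9 CPM (log2 difference -0.31 ± 0.08 SE, edgeR adjusted p = 0.00777). Groups did not overlap in either, but both calls were lost by library size alone (0.0792 and 0.129). Of the transcript words of Higd1a 24.4% occur in other genes, and Wdr5b overlaps 19.8% of the exonic bases of Fam162a on the other strand.

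Pdk1, the kinase that holds pyruvate back from mitochondrial oxidation, did not pass. It was at 248.0, 255.4 and 239.1 CPM in controls and 220.7, 206.6 and 224.3 CPM in treated libraries, lower in all treated libraries (log2 difference -0.19 ± 0.08 SE by edgeR, adjusted p = 0.0563). It was called in 4 of 16 alternatives, DESeq2 among them (adjusted p = 0.0448). Over all alternatives its adjusted p ran from 0.0294 to 0.739.

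None of the 4 glycogen genes was called by edgeR (0 of 4), beside 44.6% of all genes. At an unadjusted p under 0.05 there was 1, Gbe1, which DESeq2 also called (1 of 4), and limma-voom called 0. Gys1, glycogen synthase, was at 70.8, 62.8 and 61.0 CPM in controls and 79.8, 50.1 and 80.0 CPM in treated libraries, so that replicate 2 fell below all controls and the other treated libraries above them. Without that replicate Gys1 was called higher (log2 fold change 0.30, edgeR adjusted p = 0.00564) against 0.11 and 0.606 with it. Its exons overlap 6.47% with those of Ruvbl2 on the other strand. Gbe1, the branching enzyme, was at 60.3, 52.4 and 52.6 and 49.9, 31.4 and 48.5 CPM, again lowest in replicate 2 (log2 difference -0.35 ± 0.15 SE by edgeR, adjusted p = 0.0812), and was called lower in 4 alternatives, with the smallest adjusted p without a filter on low counts (0.00654). The groups of Gbe1 did not overlap.

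The phosphoglucomutase genes did not pass, and their groups overlapped. The table's Pgm2 lies on chromosome 4 and is called Pgm1 in RefSeq, while its Pgm1 on chromosome 5 is RefSeq's Pgm2. The table's Pgm2 was at 164.3 to 182.2 CPM in controls and 147.5 to 186.5 CPM in treated libraries, and its Pgm1 at 29.8 to 37.3 and 31.5 to 33.2 CPM. Their log2 fold changes were -0.04 (SE 0.09) and -0.00377 (SE 0.11), with edgeR adjusted p = 0.768 and 0.98, and both turned positive by library size alone and with upper-quartile scaling.

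The 4 genes listed as JmjC-domain oxygenases, enzymes that like the HIF hydroxylases need oxygen and 2-oxoglutarate, were lower, beside 22.4% of all genes. Hif1an, given above with the HIF enzymes, also has a JmjC domain. It was not called and was higher in every treated library (log2 fold change 0.18). Jmjd6, a lysine hydroxylase that acts on splicing factors, fell from 193.8, 169.7 and 177.2 to 85.2, 83.8 and 98.0 CPM, or 2.02-fold (log2 difference -1.02 ± 0.09 SE by edgeR, adjusted p = 1.18e-06). Its exons overlap 3.66% with Mettl23 on the other strand. Kdm3a, a histone demethylase and known HIF target, fell from 228.7, 225.2 and 244.3 to 147.1, 151.7 and 136.2 CPM (log2 difference -0.68 ± 0.08 SE by edgeR, adjusted p = 1.32e-05). No treated value of either gene reached a control value. The histone demethylase gene Kdm4b fell from 137.0, 127.6 and 119.9 to 93.6, 75.2 and 106.4 CPM (log2 difference -0.48 ± 0.11 SE by edgeR, adjusted p = 0.00315). Its relative Kdm4c fell from 73.1, 81.8 and 73.8 to 60.0, 58.1 and 52.4 CPM (log2 difference -0.42 ± 0.09 SE by edgeR, adjusted p = 0.00161). In all 4 genes the groups were apart, and every call held in all 16 alternatives.

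The remaining 7 targets were all lower, beside 22.4% of all genes. Ndrg1, a stress-responsive growth regulator (ENSMUSG00000005125, mm10 chromosome 15, 66929318 to 66969640), was at 516.2, 463.6 and 464.8 CPM in controls and 200.8, 109.6 and 205.4 CPM with idelalisib. Replicate 2 lay far below the other treated libraries, which were close together. The log2 fold change was -1.48 (SE 0.25, edgeR adjusted p = 0.00461) with it and -1.24 without it. Selenbp1, a selenium-binding sulfur metabolism enzyme, showed the same order of libraries, from 33.0, 29.8 and 30.0 to 17.2, 10.4 and 19.8 CPM (log2 difference -0.96 ± 0.18 SE by edgeR, adjusted p = 0.00107). Of its transcript words 46.3% also occur in other genes, and the one sharing most, its paralog Selenbp2, had 1 read over all libraries.

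Ankrd37, an ankyrin repeat gene used as a marker of HIF activity, fell from 22.1, 19.0 and 20.4 to 12.6, 9.98 and 11.2 CPM (log2 difference -0.86 ± 0.13 SE by edgeR, adjusted p = 0.000165). On the other strand Lrp2bp overlaps 22.7% and the better expressed Ufsp2 3.70% of its exonic bases. Rora, a nuclear receptor of lymphocyte differentiation, fell from 101.2, 99.0 and 116.1 to 67.0, 81.3 and 56.1 CPM (log2 difference -0.63 ± 0.12 SE by edgeR, adjusted p = 0.000846), and here replicate 2 was the highest treated library. Wsb1, a ubiquitin ligase adaptor, fell from 220.3, 211.5 and 187.6 to 162.5, 152.9 and 158.0 CPM (log2 difference -0.39 ± 0.08 SE by edgeR, adjusted p = 0.00171).

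Hmox1 and Narf had separate groups but calls that did not hold throughout. Hmox1, which degrades heme, fell from 17.02, 21.2 and 16.4 to 12.5, 10.6 and 14.6 CPM (log2 difference -0.53 ± 0.15 SE by edgeR, adjusted p = 0.0115). Narf, a prelamin-binding protein gene, fell from 61.4, 53.4 and 52.7 to 45.1, 45.5 and 46.2 CPM (log2 difference -0.29 ± 0.09 SE by edgeR, adjusted p = 0.0173). By library size alone they were lost (0.0529 and 0.229), for Hmox1 also without control replicate 2 (0.075), and for Narf also without control replicate 1 (0.127) or idelalisib replicate 1 (0.0625).

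The libraries were not equal across the set. Among the 27 genes that fell, idelalisib replicate 2 was the lowest treated library in 19 (70.4%), against 36.3% of the 3256 genes called lower overall. Control replicate 1 was the highest control in 16 (59.3%), against 28.1%. The median difference of the 39 genes from the control mean, on the log2(CPM + 0.5) scale, was -0.41, -0.53 and -0.38 in idelalisib replicates 1, 2 and 3. Replicate 2 is also the treated library that lay apart from the others on the second principal component of all genes, which held 11.6% of the variance. Without it 27 of the hypoxia genes were lower and 3 higher. Hif1a and Epas1, the alpha subunit genes of the set, were at their highest treated level in that same replicate. Hif3a, another alpha subunit gene, lies outside the set and is named after its values were seen. It was lowest in that replicate, at 17.6, 14.9 and 17.7 CPM in the treated libraries. Hif3a was not called (log2 fold change 0.20, edgeR adjusted p = 0.24). Genes of 1 library share its RNA, and these orders were not tested.

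Other genes of the pathway were counted from lists, to be read against the 22.4% of all genes called lower and 22.2% called higher. Of 21 HIF targets in glycolysis 16 were lower and 0 higher (median log2 fold change -0.39) by edgeR. None was higher at an unadjusted p under 0.05 either (0 genes), nor by DESeq2 or limma-voom (0 each), and by library size alone 11 were lower. The list's largest falls were in Gapdh at -3.39 (SE 0.63, edgeR adjusted p = 0.0151), the enolase Eno2 at -1.36 (9.25e-08) and the glucose transporter Slc2a3 at -1.24 (2.27e-07). Gapdh, for which many pseudogene copies exist, spread from 122.3 to 493.0 CPM among the control libraries, against 27.9 to 36.7 CPM with idelalisib. Of 29 tested further HIF targets outside glycolysis 15 were lower and 3 higher (median -0.41). Its largest changes among genes averaging at least 1 CPM were falls in the metallothionein Mt2, at -1.83, and the early response gene Ier3, at -1.38, and a rise in Ppp1r3c, a glycogen-targeting phosphatase subunit, at 1.19 (edgeR adjusted p = 0.000165, 0.00572 and 0.00351). The others called higher, named after their values were seen, were the ubiquitin ligase gene Rnf122 at 1.13 and Ppfia4 at 0.80 (edgeR adjusted p = 0.0171 and 0.00787). Ppp1r3c, Rnf122 and Ppfia4 were scarce, at means of 1.45, 1.49 and 4.16 CPM in controls and 3.33, 3.27 and 7.22 CPM with idelalisib. Rnf122 was at 1.65 CPM in idelalisib replicate 1. Mt2 went from a mean of 6.45 to 1.79 CPM. Bhlhe41, Lox, Epo and Flt1 were too low to test.

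With TMM scaling, genes that act on HIF itself were called no more often than all genes, in either direction. Of 19 tested partners and turnover factors 4 were higher, 3 lower and 12 not called (median log2 fold change 0.10). Of all genes 22.2% were higher and 22.4% lower. By library size alone 8 of the 19 were higher. Mcm7, a replication helicase subunit known to bind the HIF alpha subunit, rose from 83.9 ± 2.81 to 189.4 ± 7.82 CPM (SD, n = 3), or by 1.17 on the log2 scale (edgeR adjusted p = 1.01e-07). Cited2, which competes with HIF for its coactivators, rose from 23.9 ± 5.73 to 42.7 ± 5.69 CPM (SD, n = 3; edgeR adjusted p = 0.00122). Crebbp, one of those coactivators, fell from 141.5 ± 3.35 to 92.3 ± 6.82 CPM (SD, n = 3; edgeR adjusted p = 4.83e-05). The remaining calls, named after their values were seen, were Arnt2 and Rbx1 (higher) and Cops5 and Hsp90ab1 (lower). Arnt2 was scarce, with 5 to 10 reads in control and 19 to 24 in idelalisib libraries. Its log2 fold change was 1.42 (edgeR adjusted p = 0.0117), opposite in direction to that of Arnt.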

How the data were processed

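Messenger RNA was sequenced from 3 control and 3 idelalisib cultures. The mm10 build, the aligner HISAT2 2.0.5, the counter featureCounts 1.5.0-p3 and the read trimmer fastp are named in the submitters' processing notes. The deposited file holds raw counts per gene for each library, with gene length, position and symbol. Whether counting used strand and how reads with several matches were treated is not given in the sources used here. Some genes that overlap on opposite strands or share sequence are named above with that limit. It also holds for others. Gm12454 (130 reads over all libraries) overlaps 9.29% of the exonic bases of Car9 on the other strand. For the table's Pgm2 it is 13.6% with Itgb3bp (408 reads), and for Plod2 6.42% with Gm38391 (28 reads). For Ndrg1 it is 6.35% with Gm17035 (0 reads). Of the transcript words of Ak4 and the untested Loxl2, 10.2% and 45.0% occur in other genes.

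Counts were filtered with filterByExpr (minimum count 10, minimum total 15), which kept 14530 genes, scaled by TMM and tested with the quasi-likelihood F test of edgeR 4.0.16 (R 4.3.3, robust fit, group as the only term), adjusted by Benjamini-Hochberg over all of them and called under 0.05. The filter asks for a CPM equal to 10 reads at median library size in at least 3 libraries, which Loxl2 did not reach. Levels between genes are CPM per kilobase of the deposited gene length. The script was tested on simulated data. DESeq2 1.42.0, limma 3.58.1 (voom) and other scalings, filters and thresholds were alternatives, as was leaving out each library. Counts from totals of 13372318 to 16770452 reads carry counting error beside the spread between cultures, and no 2 libraries agreed within sampling noise. All 40 genes are accounted for by name. Of each other pathway list the 3 called genes with the largest change that average at least 1 CPM are named, and other names are said to be chosen after their values were seen. The genes and lists were chosen with earlier results of these data known, so no list stands as independent support. Promoters were read from RefSeq (GRCm38.p6), and exon overlap and shared 50-base words from GENCODE M21, which holds 99.8% of the gene identifiers.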

Additional observations from a re-analysis of the deposited data

How the results depend on the processing

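Over 16 alternatives the 39 hypoxia genes were compared with their reported values: 576 comparisons kept direction and side of the threshold, 25 lost a call, 11 gained one and 12 changed sign. Those 12 were all in genes not called: Egln2 without idelalisib replicate 3 (-0.0426); Pgm1 with upper-quartile factors (0.0347), library size alone (0.15), limma-voom (0.00269), no filter beyond 1 count (0.00189), a replicate block (0.0027), without control replicate 2 (0.10) and without idelalisib replicate 2 (0.0236); and Pgm2 with upper-quartile factors (0.000509), library size alone (0.12), without control replicate 1 (0.00508) and without idelalisib replicate 2 (0.0519). The cause was not tested. Leaving out 1 library at a time, these log2 fold changes ran from -0.0426 to 0.20 for Egln2, from -0.0645 to 0.10 for Pgm1 and from -0.11 to 0.0519 for Pgm2. By library size alone the median of the hypoxia genes was -0.32 and 8 HIF partners were higher. At an adjusted p under 0.01, 2138 genes of all were higher, 1 hypoxia gene and 2 HIF partners. Leaving out 1 library at a time gave 2483 to 3514 genes higher and 2584 to 3533 lower, 1 to 3 hypoxia genes higher and 25 to 28 lower with medians of -0.51 to -0.41, 2 to 5 HIF partners higher, 0 to 1 glycolytic targets higher and 13 to 17 lower. The labels give both groups replicate numbers. Deviations of same-numbered libraries from their group means correlated at 0.0886, -0.139 and -0.124. Those of libraries with different numbers correlated at -0.142 to 0.225. With 3 libraries per group these values cannot decide whether the numbers pair the libraries. With a replicate block 2 hypoxia genes were higher and 28 lower, 2910 genes of all higher and 3051 lower, 3 HIF partners higher and 3 lower, 0 glycolytic targets higher and 15 lower, and 3 further targets higher and 14 lower. Low counts limit Adm, Car9, Epas1 and Loxl2 in the set, and Arnt2, Mt2, Ppp1r3c, Rnf122 and Ppfia4 outside it.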
